A study of Homo sapiens with 9 samples.

Results

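Cohesin and condensin are the ring-shaped SMC (structural maintenance of chromosomes) complexes that fold and hold chromosomes, and the RNA of 10 of their subunits was followed in MCF10A cells after CHAF1B was knocked down. The members were the rows of the count table whose gene IDs carry the symbols SMC1A, SMC3, RAD21, STAG1 and STAG2, of cohesin, and SMC2, SMC4, NCAPD2, NCAPG and NCAPH, of condensin. All 10 members were found among the 26186 genes of the table, and all 10 passed the filter on low counts, as 16235 genes did. CHAF1B encodes the p60 subunit of CAF-1, the chaperone that places histones H3 and H4 on newly copied DNA, and the series was designed to follow transcription when CAF-1 is suppressed. MCF10A is an immortalised, non-tumorigenic human breast epithelial line. The 3 groups received lentiviral short hairpins in the pLKO.1 vector, labelled shCHAF1B-#1, shCHAF1B-#2 and shGFP, written below as shCHAF1B-1, shCHAF1B-2 and shGFP. The shGFP hairpin targets green fluorescent protein and served as control. All groups were placed in 2 µg/mL puromycin 24 hours after transduction, and RNA was collected on day 3 after infection, with 3 libraries of polyadenylated RNA per group.

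Both complexes clasp DNA with a pair of SMC proteins whose ATPase heads are bridged by a kleisin protein, onto which further subunits made of HEAT repeats dock. Cohesin is loaded throughout interphase, where it extrudes chromatin loops, and after replication it holds sister chromatids together until separase cuts its kleisin at anaphase. Condensin extrudes loops that compact chromosomes for mitosis; condensin I meets chromosomes after the nuclear envelope breaks down, while condensin II, which shares the same SMC proteins, is nuclear throughout the cycle.

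Condensin RNA fell under both CHAF1B hairpins, and cohesin RNA moved less at the median and not all in the same direction. All 5 condensin members were lower, NCAPD2 most, at 51.9% of its shGFP level over both hairpins. In cohesin, RAD21 fell as much as NCAPG (log2 fold change -0.30 and -0.29 over both hairpins), SMC1A was lower under each hairpin, STAG2 was higher under each, and SMC3 and STAG1 passed the test with shCHAF1B-1 but not with shCHAF1B-2. Cell number and RNA per cell cannot be told apart in such bulk libraries: fewer cells in a phase that uses a gene and less of its RNA in each cell give the same value.

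The gene records of GENCODE 29 (GRCh38) place the condensin members as follows. NCAPD2 (ENSG00000010292.12) lies at chr12:6493356-6531955, NCAPG (ENSG00000109805.9) at chr4:17810902-17844862 and NCAPH (ENSG00000121152.9) at chr2:96335787-96373845, all on the plus strand. SMC2 (ENSG00000136824.18) lies at chr9:104094260-104141417 and SMC4 (ENSG00000113810.15) at chr3:160399274-160434962, both on the plus strand. The cohesin members SMC1A (ENSG00000072501.17, chrX:53374149-53422728) and STAG1 (ENSG00000118007.12, chr3:136336233-136752403) are on the minus strand. SMC3 (ENSG00000108055.9, chr10:110567691-110604636) and STAG2 (ENSG00000101972.18, chrX:123960212-124422664) are on the plus strand, and RAD21 is ENSG00000164754.14.

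Because the condensin members moved together, the sequences around their starts are shown, 250 bases before and 50 after the first RefSeq start of each gene (GRCh38.p14, plus strand). Capitals mark the motifs searched on both strands. TTTGAA, with its variant form TTCGAA, is the core of the cell cycle homology region known from mitotic promoters, and CCAAT is the NF-Y box. Forms of the E2F site were searched as TTCCCGC, then as the word TTGGCGC, then as the word TTCGCGC. A match on the opposite strand reads as its reverse complement, so that TTCAAA marks the homology region core, ATTGG an NF-Y box and GCGGGAA the first E2F form. NCAPD2 is shown at chr12:6493852-6494151, NCAPG at chr4:17810729-17811028, SMC2 at chr9:104094059-104094358, SMC4 at chr3:160399400-160399699 and NCAPH at chr2:96335516-96335815.
NCAPD2: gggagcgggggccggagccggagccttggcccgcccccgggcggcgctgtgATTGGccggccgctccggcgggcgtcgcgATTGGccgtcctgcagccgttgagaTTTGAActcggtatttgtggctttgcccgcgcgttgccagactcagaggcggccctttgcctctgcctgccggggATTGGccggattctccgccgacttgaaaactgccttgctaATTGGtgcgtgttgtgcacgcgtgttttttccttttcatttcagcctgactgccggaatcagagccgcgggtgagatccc
NCAPG: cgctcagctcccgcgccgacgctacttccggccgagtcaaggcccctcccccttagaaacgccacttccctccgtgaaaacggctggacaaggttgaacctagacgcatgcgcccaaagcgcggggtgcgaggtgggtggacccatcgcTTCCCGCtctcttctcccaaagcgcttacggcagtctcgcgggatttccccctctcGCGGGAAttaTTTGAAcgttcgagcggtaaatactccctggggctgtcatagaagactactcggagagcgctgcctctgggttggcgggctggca
SMC2: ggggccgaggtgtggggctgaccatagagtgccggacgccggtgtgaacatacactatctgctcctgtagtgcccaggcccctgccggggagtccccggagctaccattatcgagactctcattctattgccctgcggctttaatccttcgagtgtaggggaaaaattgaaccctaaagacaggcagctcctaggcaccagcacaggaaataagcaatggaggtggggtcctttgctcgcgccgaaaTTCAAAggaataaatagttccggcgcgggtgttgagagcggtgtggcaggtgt
SMC4: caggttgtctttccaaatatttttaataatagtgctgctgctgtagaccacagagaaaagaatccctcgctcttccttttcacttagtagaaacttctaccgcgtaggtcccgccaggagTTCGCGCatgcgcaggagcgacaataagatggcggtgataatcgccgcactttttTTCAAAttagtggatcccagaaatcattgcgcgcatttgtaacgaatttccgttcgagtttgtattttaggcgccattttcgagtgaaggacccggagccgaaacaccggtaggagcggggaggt
NCAPH: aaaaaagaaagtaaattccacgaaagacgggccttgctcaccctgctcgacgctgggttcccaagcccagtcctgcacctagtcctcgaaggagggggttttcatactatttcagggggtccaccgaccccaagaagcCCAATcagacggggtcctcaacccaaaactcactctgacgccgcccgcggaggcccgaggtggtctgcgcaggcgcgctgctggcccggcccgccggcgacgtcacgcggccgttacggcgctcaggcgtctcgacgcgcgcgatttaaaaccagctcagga

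The search covered every start the table gives, 2 each for SMC1A, SMC2 and SMC4 and 3 for STAG2, so a gene with more starts had more windows in which to match. TTTGAA occurred in 4 of the 5 condensin promoters, those of NCAPD2, NCAPG, SMC2 and SMC4, and in 1 cohesin promoter, that of SMC3. Across all 35116 promoters of that length, 15.2% held it. In NCAPG it began 35 bases before the start, just downstream of a TTCCCGC match on the opposite strand. NCAPD2 held 4 CCAAT boxes, all on the opposite strand, and NCAPH held 1, 112 bases before its start; 34.6% of all promoters held CCAAT. Among the cohesin members STAG1 and STAG2 held it too, so it was in 2 condensin and 2 cohesin genes. Of the E2F forms, TTCCCGC (6.55% of all promoters) was found for NCAPG, SMC1A (at its start number 2) and STAG1, TTCGCGC (2.24%) for SMC4 and TTGGCGC (3.04%) for STAG2 (at its start number 3). TTCGAA (1.45%) was in no promoter of the 9 members with a sequence in the table. The motifs describe letters in a window and not binding; RAD21 was not searched.

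CHAF1B, the gene the hairpins target, was read first in every library. Levels are CPM, the counts of a gene per fixed number of counts in its library, after TMM scaling, which evens out differences in composition. CHAF1B had 2.56, 3.88 and 3.43 CPM in the shCHAF1B-1 libraries and 2.66, 3.89 and 3.07 CPM in the shCHAF1B-2 libraries, against 35.2, 41.0 and 36.8 CPM in the shGFP libraries. It stood at 8.82% of the shGFP level with shCHAF1B-1 and at 8.54% with shCHAF1B-2, in step with the labels in all 9 libraries. Total counts ran from 24339914 to 31819468 per library. All 13 mammary epithelial markers were detected in every library, at 13400 to 15000 CPM in sum. That sum covers opposite changes: the markers' log2 fold changes for the mean of both hairpins ran from -1.16 (KRT17) to 1.42 (LAMB3). One library stood apart: in shCHAF1B-1 replicate 3, the 15 B lymphocyte markers summed to 361 CPM, with 2664 counts of MS4A1 (CD20). The other 8 libraries held 2.97 to 4.55 CPM in sum, 3 to 14 counts of MS4A1 and 0 counts of TNFRSF13B. In those 8, 11 to 13 of the markers had counts, against 15 of 15. CR2 was not raised: shGFP libraries had 29 to 48 counts, the other knockdown libraries 12 to 15 and shCHAF1B-1 replicate 3 had 9. Leaving that library out moved no member's log2 fold change by more than 0.03, and the calls it ended are named below.

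Tests were edgeR's quasi-likelihood test over all 16235 genes with Benjamini-Hochberg adjusted p-values and a threshold of 0.05. The 2 hairpins were each set against the same 3 shGFP libraries, so their comparisons are not independent. The labels do not say whether the libraries of a group came from separate cultures, and the p-values cover only the scatter among the libraries at hand. With shCHAF1B-1, 10 of 10 members passed (9 lower, 1 higher), where 53.2% of all genes tested did (25.2% lower, 27.9% higher). With shCHAF1B-2, 8 of 10 passed (7 lower, 1 higher), where 51.3% of all genes did (24.6% lower, 26.7% higher). For the mean of both hairpins it was 10 of 10 (9 lower, 1 higher) against 56.9% of all genes (27.7% lower, 29.2% higher). The members' median log2 fold change for that mean was -0.30, with -0.48 for the condensin members and -0.14 for the cohesin members, and -0.01 for all genes tested. In 7 members all 6 knockdown libraries lay below all 3 shGFP libraries and in STAG2 all 6 lay above, where 22.7% of all genes lay below in that way, 25.8% above and 48.6% on either side.

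**Figure D1:**
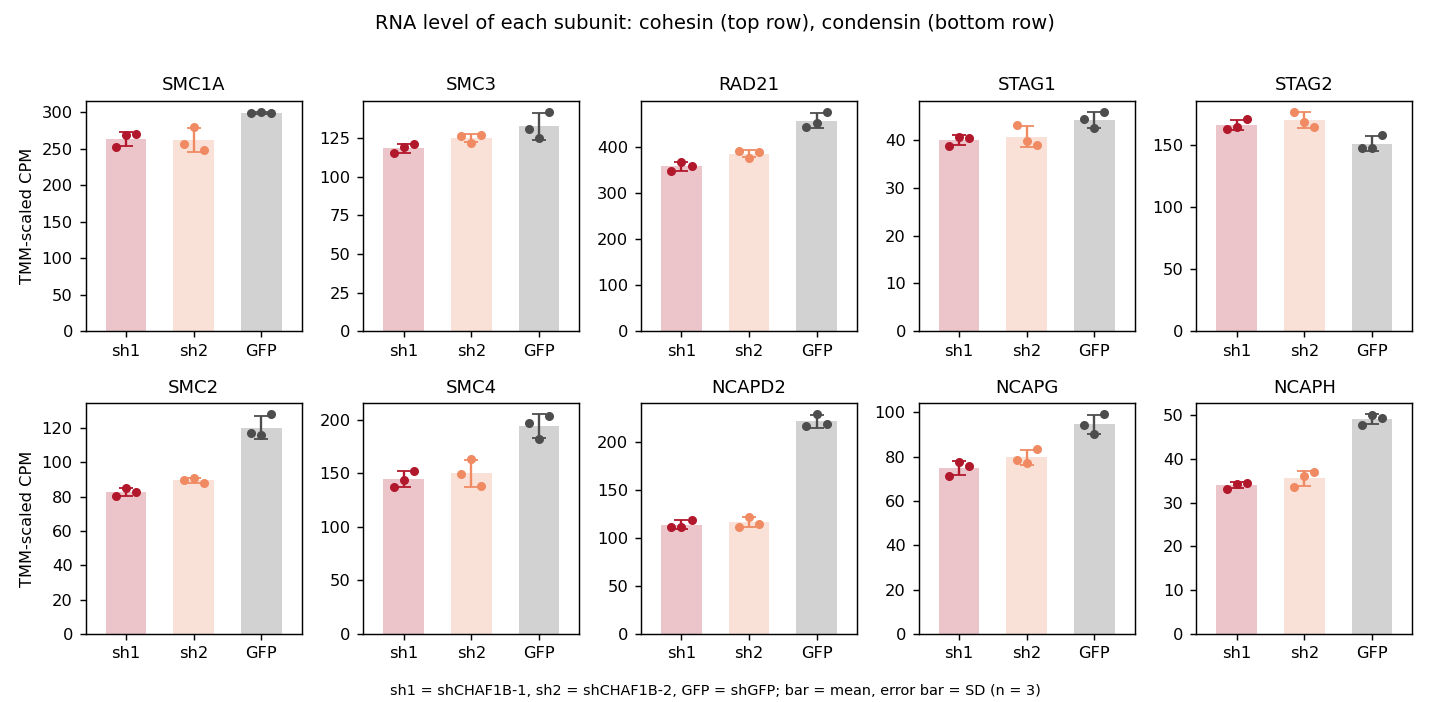
TMM-scaled CPM of the 10 subunits in each library, cohesin above and condensin below; bars are means, error bars SD, points the 3 libraries of shCHAF1B-1 (sh1), shCHAF1B-2 (sh2) and shGFP (GFP), and each panel has its own axis from 0. The condensin points of both hairpins lie under every shGFP point, while those of STAG2 lie above.

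NCAPD2, the HEAT-repeat subunit of condensin I that helps it hold DNA, changed most of the 10. In the shCHAF1B-1 libraries it had 112, 111 and 119 CPM and in the shCHAF1B-2 libraries 112, 122 and 115 CPM, against 217, 229 and 219 CPM in the shGFP libraries. The knockdown libraries overlapped each other and lay far below the controls. Its log2 fold change was -0.96 (SE 0.0478, edgeR adjusted p = 1.9e-09) with shCHAF1B-1 and -0.93 (SE 0.0478, edgeR adjusted p = 2.8e-09) with shCHAF1B-2. The 95% interval for the mean of both, -1.03 to -0.86, lay below the interval of every other member.

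The kleisin NCAPH, which bridges the SMC heads in condensin I, had 33.2, 34.2 and 34.5 CPM under shCHAF1B-1 and 33.6, 36.2 and 37.0 CPM under shCHAF1B-2, against 47.9, 50.1 and 49.3 CPM under shGFP. The groups of the 2 hairpins overlapped, and both were well clear of the controls. The log2 fold change was -0.53 (SE 0.0523, edgeR adjusted p = 1.6e-06) with shCHAF1B-1 and -0.47 (SE 0.0525, edgeR adjusted p = 6.2e-06) with shCHAF1B-2. NCAPG, the other HEAT-repeat subunit of condensin I, had 71.3, 77.7 and 75.8 CPM under shCHAF1B-1 and 78.5, 77.3 and 83.6 CPM under shCHAF1B-2, against 90.3 to 99.1 CPM under shGFP. All knockdown libraries were lower than the controls, with a narrower gap than for NCAPH. It fell by 0.34 on the log2 scale with shCHAF1B-1 (SE 0.0528, edgeR adjusted p = 0.00012) and by 0.25 with shCHAF1B-2 (SE 0.0529, edgeR adjusted p = 0.0015).

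SMC2 and SMC4, the ATPase pair common to condensin I and II, fell together. SMC2 had 80.2, 84.8 and 82.8 CPM under shCHAF1B-1 and 89.7, 91.0 and 88.1 CPM under shCHAF1B-2, against 117, 116 and 128 CPM under shGFP. All shCHAF1B-1 libraries were below all shCHAF1B-2 libraries, and both hairpins were below the controls. Its log2 fold change was -0.54 (SE 0.0492, edgeR adjusted p = 7.4e-07) with shCHAF1B-1 and -0.42 (SE 0.0492, edgeR adjusted p = 8e-06) with shCHAF1B-2. SMC4 had 137, 144 and 152 CPM under shCHAF1B-1 and 149, 163 and 138 CPM under shCHAF1B-2, against 197, 182 and 203 CPM under shGFP. The hairpins overlapped and neither reached the lowest control. SMC4 fell by 0.43 on the log2 scale with shCHAF1B-1 (SE 0.0640, edgeR adjusted p = 7.7e-05) and by 0.37 with shCHAF1B-2 (SE 0.0640, edgeR adjusted p = 0.00026).

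**Figure D2:**
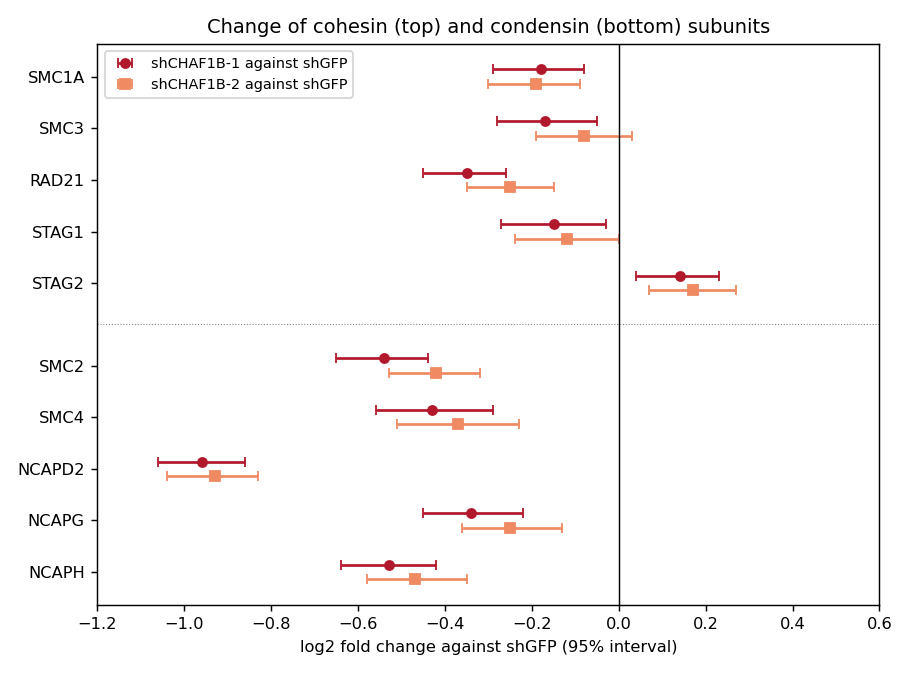
Log2 fold change of each subunit against shGFP with its 95% interval from edgeR, for shCHAF1B-1 (circles) and shCHAF1B-2 (squares); cohesin stands above the dotted line and condensin below it. NCAPD2 lies near -0.95, the other condensin members lie between -0.54 and -0.25, and STAG2 is the subunit to the right of 0.

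Of the cohesin members RAD21, the kleisin that separase cuts, changed most. It had 348, 367 and 359 CPM under shCHAF1B-1 and 390, 376 and 388 CPM under shCHAF1B-2, against 444, 451 and 476 CPM under shGFP. Each hairpin lay below the controls, and shCHAF1B-1 lay below shCHAF1B-2 without overlap. The log2 fold change was -0.35 (SE 0.0446, edgeR adjusted p = 1.7e-05) with shCHAF1B-1 and -0.25 (SE 0.0445, edgeR adjusted p = 0.00036) with shCHAF1B-2.

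The ATPase SMC1A had 252, 269 and 270 CPM under shCHAF1B-1 and 257, 280 and 249 CPM under shCHAF1B-2, against 299, 301 and 299 CPM under shGFP. Its controls were nearly identical and all knockdown libraries lay below them. The log2 fold change was -0.18 (SE 0.0499, edgeR adjusted p = 0.0066) with shCHAF1B-1 and -0.19 (SE 0.05, edgeR adjusted p = 0.0051) with shCHAF1B-2. SMC3, its partner, had 115, 119 and 121 CPM under shCHAF1B-1 and 126, 122 and 127 CPM under shCHAF1B-2, against 131, 125 and 142 CPM under shGFP. The first hairpin lay below the controls and the second overlapped them. SMC3 passed with shCHAF1B-1 (log2 fold change -0.17, SE 0.0516, edgeR adjusted p = 0.015) and not with shCHAF1B-2 (-0.08, 95% interval -0.19 to 0.03, edgeR adjusted p = 0.20). The call with shCHAF1B-1 was lost without shCHAF1B-1 replicate 1 (edgeR adjusted p = 0.060) and without shGFP replicate 3 (edgeR adjusted p = 0.080).

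STAG1 and STAG2 are alternative HEAT-repeat subunits, of which a cohesin ring carries either, and their RNA moved apart. STAG2 had 163, 165 and 171 CPM under shCHAF1B-1 and 177, 169 and 165 CPM under shCHAF1B-2, against 148, 148 and 158 CPM under shGFP. All 6 knockdown libraries were above all 3 controls. Its log2 fold change was 0.14 (SE 0.0457, edgeR adjusted p = 0.023) with shCHAF1B-1 and 0.17 (SE 0.0458, edgeR adjusted p = 0.0065) with shCHAF1B-2. STAG1 had 38.7, 40.6 and 40.4 CPM under shCHAF1B-1 and 43.2, 39.8 and 39.0 CPM under shCHAF1B-2, against 44.4, 42.5 and 45.8 CPM under shGFP. The first hairpin lay below the controls and the second overlapped them. STAG1 passed narrowly with shCHAF1B-1 (log2 fold change -0.15, SE 0.0551, edgeR adjusted p = 0.036) and not with shCHAF1B-2 (-0.12, SE 0.0554, edgeR adjusted p = 0.080).

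These small changes of the STAG genes rested on few libraries. STAG1 lost its call with shCHAF1B-1 without shCHAF1B-1 replicate 1 (edgeR adjusted p = 0.11), replicate 2 (0.064) or replicate 3 (0.068), the library with B lymphocyte RNA, and without shGFP replicate 1 (0.082) or replicate 3 (0.11). Without shCHAF1B-2 replicate 1 it passed with shCHAF1B-2 (log2 fold change -0.18, edgeR adjusted p = 0.031). STAG2 lost its call with shCHAF1B-1 without shCHAF1B-1 replicate 2 (edgeR adjusted p = 0.050) or replicate 3 (0.081) and without shGFP replicate 1 (0.093) or replicate 2 (0.080), and lost it with shCHAF1B-2 without shCHAF1B-2 replicate 1 (0.055). For the mean of both hairpins STAG2 passed whichever library was left out, at a log2 fold change of 0.15 (SE 0.0398, edgeR adjusted p = 0.0047). STAG1 (log2 fold change -0.14, SE 0.0476, edgeR adjusted p = 0.026) did not pass for that mean without shCHAF1B-1 replicate 1 (0.052), shGFP replicate 1 (0.073) or shGFP replicate 3 (0.11). SMC3 (-0.12, SE 0.0445, edgeR adjusted p = 0.029) did not pass without shCHAF1B-1 replicate 1 (0.059) or 2 (0.052), shCHAF1B-2 replicate 2 (0.053), or shGFP replicate 1 (0.057) or 3 (0.20).

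The balance between both STAG genes was measured within each library, where scaling has no part. STAG1 made up 19.8, 20.4 and 19.8% of the STAG1 plus STAG2 counts per kb of exon with shCHAF1B-1 and 20.3, 19.7 and 19.7% with shCHAF1B-2, against 23.8, 23.0 and 23.2% with shGFP. All knockdown libraries were below all controls. The share was 19.9% ± 0.322 in the 6 knockdown libraries and 23.4% ± 0.389 in the 3 shGFP libraries (SD), a difference of -3.41 percentage points. A two-sided exact permutation test over the 9 libraries gave p = 0.0119, the smallest that its 84 regroupings allow.

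Between the complexes, the summed counts per kb of the 5 condensin members over those of the 5 cohesin members came to 0.534, 0.533 and 0.543 with shCHAF1B-1 and 0.520, 0.556 and 0.537 with shCHAF1B-2, against 0.703, 0.702 and 0.689 with shGFP. The ratio averaged 0.537 ± 0.00582 with shCHAF1B-1, 0.538 ± 0.0183 with shCHAF1B-2 and 0.698 ± 0.00802 with shGFP (SD, n = 3 each), with no overlap. Within condensin, NCAPD2 made up 23.1 to 24.5% of the counts per kb in the knockdown libraries and 30.0 to 32.6% in the shGFP libraries. These 2 ratios are descriptions of the values above and carry no test of their own.

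**Figure D3:**
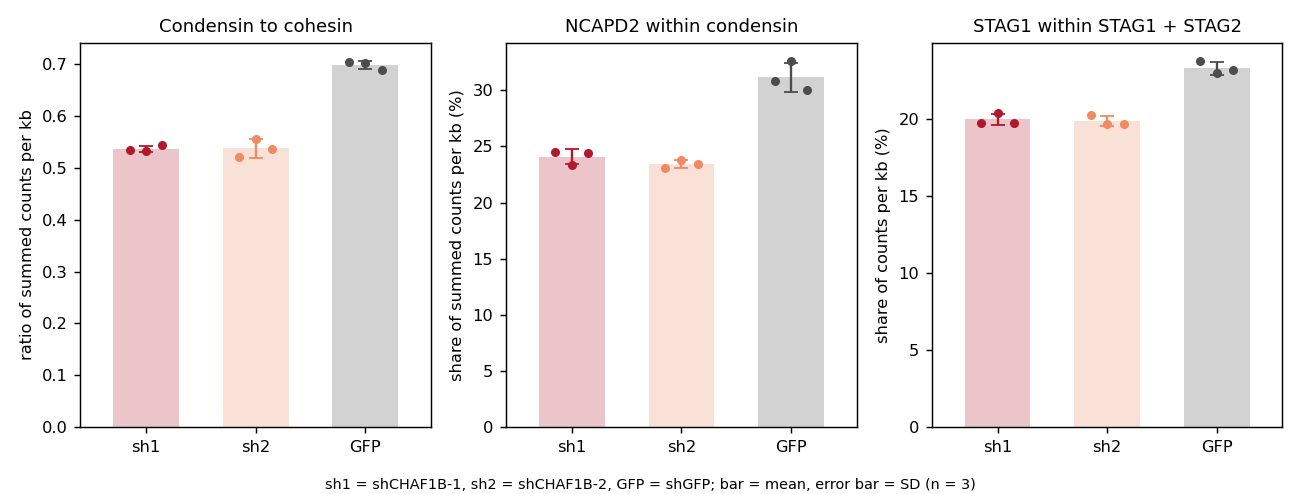
Left, summed counts per kb of condensin over cohesin members; middle, share of NCAPD2 in the condensin sum; right, share of STAG1 in STAG1 plus STAG2. Points are libraries, bars means and error bars SD (n = 3) for shCHAF1B-1 (sh1), shCHAF1B-2 (sh2) and shGFP (GFP), with axes from 0; in all 3 panels both hairpins lie under shGFP and level with each other.

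Levels between genes were compared as CPM per kb of the gene's merged exons. Merged exons can be longer than any single transcript: SMC4 has 8457 merged bases and 5471 in its longest coding transcript, NCAPD2 6487 and 5548. RAD21 has 6192 and 3749, and SMC3 4275 and 4114. The order of genes below, and which of them are level, thus holds for merged exons only. Other lengths were not tried. In shGFP cells RAD21 led with 73.8 ± 2.75 CPM per kb, followed by NCAPD2 at 34.2 ± 0.962, SMC3 at 31.0 ± 2.03 and SMC1A at 28.6 ± 0.0872 (SD, n = 3 each). Every NCAPD2 library was above every SMC3 library there, but only just, and SMC3 lay above SMC1A by little more than its own spread. SMC4 (22.9), NCAPG (19.2), SMC2 (18.6) and STAG2 (18.5) came next as means of CPM per kb; SMC2, STAG2 and NCAPG overlapped among their libraries. NCAPH (14.6 to 15.3) and STAG1 (5.42 to 5.84) were lowest in CPM per kb. With the hairpins NCAPD2 dropped to 17.6 ± 0.652 CPM per kb with shCHAF1B-1 and 17.9 ± 0.752 with shCHAF1B-2, level with SMC4 at 17.1 ± 0.908 and 17.7 ± 1.45 CPM per kb and below STAG2 at 20.3 ± 0.475 and 20.8 ± 0.737 CPM per kb (SD, n = 3 each).

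The hairpins were also set against each other. No member differed between them at an adjusted p of 0.05 in edgeR, and no gene did (0 of 16235, 0.0%), with 1800 genes at an unadjusted p under 0.05 in edgeR. DESeq2 and limma-voom also called 0 genes, with 1238 and 1705 at that unadjusted level. SMC2 was 0.12 higher on the log2 scale with shCHAF1B-2 than with shCHAF1B-1 (95% interval 0.01 to 0.22), and RAD21 was 0.10 higher (0.01 to 0.20). For NCAPD2 the difference between hairpins lay between -0.08 and 0.13 and for STAG2 between -0.06 and 0.14 on the log2 scale.

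The fall of the condensin genes was set beside their relatives and partners. The genes of condensin II and its partners fell in 6 of 6 cases for the mean of both hairpins (median log2 fold change -0.42). They fell in 6 of 6 with shCHAF1B-1 and in 5 of 6 with shCHAF1B-2. Of all genes tested, 27.7% fell for the mean, 25.2% with shCHAF1B-1 and 24.6% with shCHAF1B-2. NCAPD3, the condensin II counterpart of NCAPD2, fell most of these 6 genes. It had 62.7, 66.5 and 63.9 CPM under shCHAF1B-1 and 66.0, 66.8 and 64.2 CPM under shCHAF1B-2, against 112, 114 and 117 CPM under shGFP. That is a log2 fold change of -0.81 (SE 0.0370, edgeR adjusted p = 5.7e-10) for both hairpins, in libraries that did not overlap. NCAPG2 and NCAPH2, the other condensin II subunits, fell by 0.52 (SE 0.0458, edgeR adjusted p = 3.9e-07) and 0.35 (SE 0.0543, edgeR adjusted p = 8.9e-05) on that scale. TOP2A, the topoisomerase that untangles sister chromatids, fell by 0.50, KIF4A, a kinesin that binds condensin I, by 0.16, and MCPH1, which holds condensin II in check in interphase, by 0.15. MCPH1 did not pass with shCHAF1B-2 (-0.10, edgeR adjusted p = 0.17).

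Cohesin's regulators moved less evenly. Of 14, 7 fell for the mean of both hairpins and none rose, where 56.9% of all genes passed (27.7% lower, 29.2% higher). Their median log2 fold change was -0.08, against -0.01 for all genes. With shCHAF1B-1 6 fell and none rose, where 25.2% of all genes fell and 27.9% rose. With shCHAF1B-2 7 fell and 2 rose, where 24.6% of all genes fell and 26.7% rose. Without shCHAF1B-2 replicate 2, 7 fell and 2 rose for the mean. ESPL1, the separase, had 24.9 ± 1.58 CPM under shCHAF1B-1 and 24.0 ± 1.83 CPM under shCHAF1B-2, against 51.4 ± 1.40 CPM under shGFP (SD, n = 3 each), a log2 fold change of -1.07 (SE 0.0547, edgeR adjusted p = 1.8e-09). CDCA5 (sororin), which keeps cohesin on sister chromatids, fell by 0.78 (SE 0.0458, edgeR adjusted p = 7.7e-09). The shugoshins SGO1 and SGO2, which shield centromeric cohesin, fell by 0.70 (SE 0.0721, edgeR adjusted p = 2e-06) and 0.61 (SE 0.0664, edgeR adjusted p = 3.6e-06). The 2 that rose with shCHAF1B-2 were WAPL, which opens the ring, and PDS5A, which binds it, each by 0.11 on the log2 scale (edgeR adjusted p = 0.038 and 0.044). NIPBL, the cohesin loader, and CTCF, which halts cohesin at loop anchors, are named here with their values known: their log2 fold changes were 0.00 (SE 0.0540, edgeR adjusted p = 0.99) and -0.01 (SE 0.0383, edgeR adjusted p = 0.77).

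**Figure D4:**
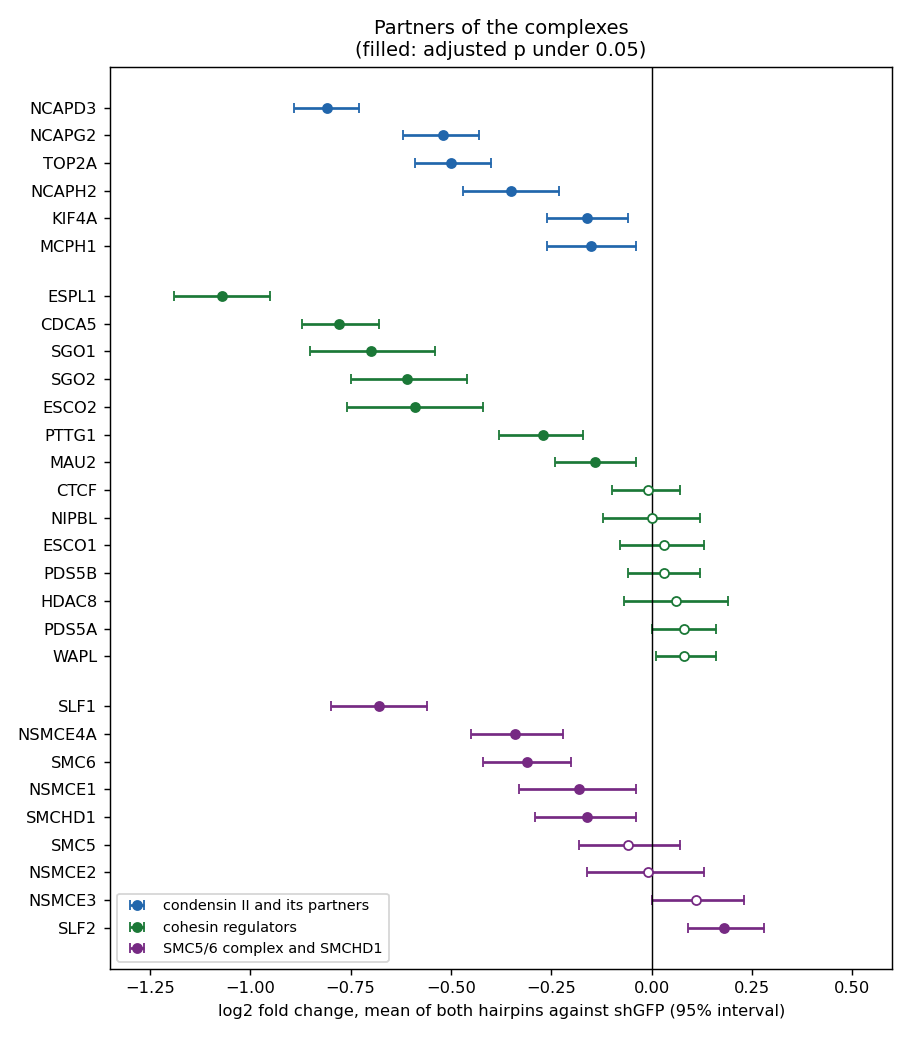
Log2 fold change for the mean of both hairpins against shGFP, with 95% intervals from edgeR, of genes tested from 3 lists: condensin II and its partners, cohesin regulators, and the SMC5/6 complex with SMCHD1. Filled points passed an adjusted p of 0.05; ESPL1 lies farthest left at -1.07, and SLF2, at 0.18, is the filled point right of 0.

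The remaining SMC complex, SMC5/6, which acts in DNA repair, was mixed. Of 10 genes listed with SMCHD1, 9 were tested. For the mean of both hairpins 5 fell and 1 rose, where 56.9% of all genes passed (27.7% lower, 29.2% higher). Their median log2 fold change was -0.16, against -0.01 for all genes. With shCHAF1B-1 5 fell and 1 rose, where 25.2% of all genes fell and 27.9% rose. With shCHAF1B-2 3 fell and 1 rose, where 24.6% of all genes fell and 26.7% rose. Without shCHAF1B-1 replicate 2 or shGFP replicate 1, 3 fell for the mean. The members that fell were SLF1 (-0.68, edgeR adjusted p = 1.8e-07), which recruits the complex to damage, NSMCE4A (-0.34), SMC6 (-0.31), NSMCE1 (-0.18) and SMCHD1 (-0.16), on the log2 scale. SLF2, the partner of SLF1, rose by 0.18 on the log2 scale (SE 0.0454, edgeR adjusted p = 0.0033), with 58.0 to 62.8 CPM in the 6 knockdown libraries and 51.0 to 55.8 CPM in the 3 shGFP libraries. SMC5 (-0.06), NSMCE2 (-0.01) and NSMCE3 (0.11) did not pass, and EID3 was too low to test.

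The meiotic counterparts of the cohesin subunits were scarce. REC8, the meiotic kleisin, had 2.69 ± 0.442 CPM under shCHAF1B-1 and 2.23 ± 0.392 CPM under shCHAF1B-2, against 1.94 ± 0.261 CPM under shGFP (SD, n = 3 each). It passed with shCHAF1B-1 (log2 fold change 0.48, edgeR adjusted p = 0.040), where its 3 libraries (2.20 to 3.04 CPM) lay just above the controls (1.65 to 2.16 CPM), and not with shCHAF1B-2, which overlapped them. For the mean of both hairpins it did not pass (0.35, edgeR adjusted p = 0.085). Without shCHAF1B-1 replicate 1 or shCHAF1B-2 replicate 3, 1 gene of the list passed for that mean. STAG3 had a log2 fold change of 0.33 (SE 0.264, edgeR adjusted p = 0.31) at 0.609 to 1.85 CPM. SMC1B had 1 to 7 counts per library and was not tested, and RAD21L1 was not among the genes of the table.

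Mitotic genes outside these complexes moved with condensin. Of 24 listed, 24 fell with each hairpin and for their mean (median log2 fold change -0.51, range -1.11 to -0.29). Of all genes tested, 25.2% fell with shCHAF1B-1, 24.6% with shCHAF1B-2 and 27.7% for the mean. In all 24 the 6 knockdown libraries lay below the 3 shGFP libraries, as in 22.7% of all genes tested. CCNB2 (cyclin B2) had 34.5 ± 1.58 CPM under shCHAF1B-1 and 39.2 ± 1.59 CPM under shCHAF1B-2, against 79.4 ± 3.25 CPM under shGFP (SD, n = 3 each). Its log2 fold change was -1.11 (SE 0.0453, edgeR adjusted p = 2.1e-10). BIRC5 (survivin), CDC20, the activator of the anaphase-promoting complex, and HMMR, a spindle protein, fell by 0.95, 0.83 and 0.76. The condensin members' median of -0.48 thus stood near the mitotic list's -0.51 and the cohesin members' -0.14 nearer the -0.01 of all genes; the part of a smaller share of mitotic cells in the condensin values was not tested.

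The members of each complex were also followed from library to library. Each condensin member followed the mean of the other 4 over the 9 libraries, with Pearson r from 0.934 (NCAPG) to 0.988 (SMC2) on standardised log2 CPM. The cohesin members did so less evenly, with r of 0.886 for STAG1, 0.849 for SMC3, 0.798 for RAD21 and 0.551 for SMC1A, and -0.61 for STAG2. Genes outside the members whose log2 CPM was most like the condensin mean were GINS1, a subunit of the replicative helicase (r = 0.998), FANCI, a Fanconi anaemia protein (0.997), TMEM263 (0.996), LBR, the lamin B receptor (0.996), and KIF11, a spindle kinesin (0.995). Most like the cohesin mean were CENPC, a centromere protein (r = 0.977), INTS6 of the Integrator complex (0.972), MIOS (0.970), CGGBP1 (0.969) and TIA1, an RNA-binding protein (0.969). All these genes share the 6 knockdown and 3 control libraries and any step between them, so the values describe likeness only.

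A short word shared with CHAF1B stood in some of these genes. The 7-mer AAGCCGT and the words shifted from it by 1 base (the word AGCCGTC) and by 2 bases (the word GCCGTCA) overlap at a single site in the CHAF1B coding sequence. They were looked up after earlier results of these data had drawn attention to them. In the longest coding transcripts of GENCODE 29, NCAPD2 was the only condensin member with any of them, holding AAGCCGT in its coding sequence, and SMC1A the only cohesin member, holding GCCGTCA where its 5′ UTR meets the coding sequence. NCAPD3 and NCAPG2 also held AAGCCGT in coding sequence, and NCAPH2 held AGCCGTC and GCCGTCA there. The AAGCCGT sites of CHAF1B and of the condensin genes are shown with the 10 bases on either side, transcript strand, the word in capitals.
CHAF1B: cgtcataccaAAGCCGTcaatgttgtg
NCAPD2: ggtgtccgggAAGCCGTgcttaatgcc
NCAPD3: tctgtcaagaAAGCCGTggagtcaaag
NCAPG2: acgtttgtacAAGCCGTgtctaaggag

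Of 12680 coding genes tested, 1070 (8.44%) held AAGCCGT. Their median log2 fold change was -0.05 with shCHAF1B-1 and -0.09 with shCHAF1B-2, against 0.02 with each for genes without it, and 35.0 and 35.8% of them were called lower, against 28.0 and 27.0% of the rest. The gap was smaller for AGCCGTC, with 32.8 and 34.2% of its holders called lower, against 28.2 and 27.1% of the rest. It was smallest for GCCGTCA, with 29.3 and 31.0% of its holders called lower, against 28.5 and 27.4% of the rest. Longer transcripts have more room for a word, and genes with and without it were not matched for transcript length or expression level. The part of AAGCCGT in the fall of NCAPD2 was not tested. The 4 condensin members with none of the 7-mers had a median log2 fold change of -0.44 for the mean of both hairpins, and the mitotic genes with none had -0.49. Of the 24 mitotic genes, 6 held at least 1 of the words, and 2 of these, CCNB2 and BIRC5, held AAGCCGT. Of condensin II and its partners, those with none (TOP2A, KIF4A and MCPH1) had -0.16.

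Some members share exon bases with genes on the opposite strand, and reads of such pairs cannot be told apart where counting ignores strand; the kit in the labels does not mark strand. LCORL covers 33.1% of the exon bases of NCAPG, PCCB 21.2% of those of STAG1, TRIM59 18.5% and IFT80 7.18% of those of SMC4, UTP23 8.37% of those of RAD21 and MRPL51 7.49% of those of NCAPD2. For the mean of both hairpins LCORL (log2 fold change 0.07), PCCB (0.07), TRIM59 (-0.15), IFT80 (0.02) and MRPL51 (-0.05) did not pass. UTP23 fell by 0.20 (SE 0.0481, edgeR adjusted p = 0.0028), with 38.7 ± 0.817 CPM under shCHAF1B-1 and 42.8 ± 1.76 CPM under shCHAF1B-2, against 46.8 ± 2.72 CPM under shGFP (SD, n = 3 each), while RAD21 had 348 CPM or more in every library. SMC4, NCAPD2 and NCAPG have annotated pseudogenes, and how reads shared with them were counted is not given in the sources used here.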

How the data were processed

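The authors deposited raw counts per gene for the 9 libraries (26186 genes, lowest row total 7), from TruSeq version 2 libraries of polyadenylated RNA, per the labels' protocols. STAR 2.5.3a, HTSeq 0.8.0 and DESeq2 1.18.1 are listed in the submitters' processing notes, as are hg38 and mm10, without saying what each was used for; the counting settings are not given in the sources used here. Gene symbols came from GENCODE 29, which matched 26149 IDs, and promoters from RefSeq, which held 9 of the 10 members.

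Counts were tested with edgeR 4.0.16 (R 4.3.3; TMM, quasi-likelihood, group as the only term, all 9 libraries, filterByExpr with a minimum of 10 counts, 16235 genes kept, Benjamini-Hochberg threshold 0.05); the common biological coefficient of variation was 6.24%. Alternatives were DESeq2 1.42.0, limma-voom (limma 3.58.1), RLE and upper-quartile scaling, other filters, a threshold of 0.01, the groups compared alone, a replicate block and leaving out each library. The fit was tested on simulated data. Exon lengths are merged exons. The permutation test went through every regrouping in Python 3.11.15 with numpy 2.4.6. Standard errors cover the spread between libraries only.

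Members and gene lists were chosen with earlier results of these data known. The genes named were the members, CHAF1B, every gene of a list of 6 or fewer, otherwise the 4 with the smallest adjusted p for the mean of both hairpins plus any behind a count of at most 5, and the 5 genes most like each complex with a mean of at least 1 CPM. Of 6 T lymphocyte markers, 1 was among the genes deposited, CD247, with 0 to 4 counts per library. Of 7 fibroblast markers, 5 were, with 14.3 to 17.6 CPM in sum. Within that sum DCN fell and COL1A1 rose for the mean of both hairpins (log2 fold change -2.38 and 0.84).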

Additional observations from a re-analysis of the deposited data

How the results depend on the processing

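Every member kept its direction under every alternative run, and of 583 recomputed log2 fold changes of the members and CHAF1B, 552 kept their side of the threshold. The condensin members, RAD21 and SMC1A passed with each hairpin at an adjusted p of 0.05 under every alternative. With a threshold of 0.01, 7 members passed with shCHAF1B-1, 8 with shCHAF1B-2 and 8 for the mean. The calls lost were those of SMC3, STAG1 and STAG2. Besides the libraries named with those genes, STAG1 with shCHAF1B-1 lost its call in DESeq2 (adjusted p = 0.065), without a filter (0.050) and with the replicate block (0.061), and STAG2 with shCHAF1B-1 lost it with upper-quartile scaling (0.067), which called STAG1 with shCHAF1B-2 (0.031); the cause was not tested. Leaving out each library gave 8 to 10 members with shCHAF1B-1, 8 with shCHAF1B-2, 8 to 10 for the mean and 0 between hairpins. Of the meiotic subunits, 0 passed for the mean of both hairpins and 0 to 1 with a library left out. The share of STAG1 differed by -3.57 to -3.19 percentage points without each library, and by -3.33 on counts not divided by length. No pairing by replicate number was detected. Same-numbered libraries correlated from -0.138 to 0.1 in their deviations from the group means, and differently numbered ones from -0.217 to 0.22. With the replicate number as a block 9, 8 and 10 members passed with shCHAF1B-1, with shCHAF1B-2 and for the mean, and 0 between hairpins. Depth limits the genes at a few counts, such as SMC1B.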
